A study of Mus musculus with 86 samples.

Results

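SOX2 regions inside genes without CTCF are stretches of the mouse genome that SOX2 occupied in cycling embryonic stem cells, well within genes and away from CTCF. Overlapping SOX2 peaks of both asynchronous libraries were joined, and the 51672 joined regions that both libraries supported were kept. A region belonged to the set if it overlapped the body of a protein-coding gene (mm10), lay more than 1 kb from either boundary of every protein-coding gene, and shared no base with a CTCF peak of either asynchronous library. This rule found 15397 regions, or 29.8% of the 51672, in 6307 of the 21887 protein-coding genes. It used the asynchronous lists and the gene annotation only, so the mitotic SOX2 lists played no role in the choice.

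The libraries came from mouse embryonic stem cells of strain 129S5/SvEvBrd, lines from the early embryo that renew themselves in culture. All groups shared these cells and a medium containing serum and leukemia inhibitory factor. Mitotic cells had received 100 ng/ml of nocodazole, a microtubule poison that stops cells in mitosis, for 6 h before they were shaken off the dish, and asynchronous cells were untreated. SOX2 was precipitated with antibody AF2018 from mitotic and from asynchronous cells, and CTCF with antibody ab70303 from mitotic and from asynchronous cells, with 2 libraries in each of these 4 groups. These 8 of the 86 libraries of the series were analysed here. The labels do not give the purity of the mitotic cells, and they do not say that replicates were separate cultures, so the spread between replicates may be technical.

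The mitotic SOX2 lists held 1976 and 408 peaks in replicates 1 and 2, and the asynchronous SOX2 lists 90266 and 63504. Depth, read from the lists as background reads per 100 bp of the shortest peak, was 2.62 and 1.64 in the mitotic and 2.48 and 1.61 in the asynchronous SOX2 libraries, so replicate 1 was deeper than replicate 2 in both conditions. A region counted as called in mitosis where a mitotic SOX2 peak covered at least 1 bp of it, at the authors' threshold, a q-value of 0.05. A call is a statement on detection. At average background the smallest fold enrichment of a called peak was 2.94 in mitotic replicate 1 and 4.04 in mitotic replicate 2, and 94.3% and 70.0% of the 15397 regions exceeded these folds in the asynchronous library of the same number.

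SOX2 is an HMG-box transcription factor that binds the minor groove of DNA, bends it, and acts in pluripotent cells with the POU factor OCT4, often on adjoining motifs. Many of its sites in stem cells lie in introns and between genes, where enhancers are found. CTCF is a zinc finger protein that anchors chromatin loops and marks insulators. When chromosomes condense in mitosis, many factors give much weaker signals in ChIP, and sites where a factor is still found are discussed as mitotic bookmarks.

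Most of the set had no SOX2 peak in mitosis. Among the 27 regions that both mitotic libraries called, 5 held an annotated start of the gene around them. The 250 bases before the starts in Gcnt2, Phc2, Mettl9 and Csnk1e are shown from 5′ to 3′ to let their makeup be compared with those below. Capitals mark ACAAT, the core letters of the SOX2 motif, and ATTTGCAT, the octamer read by POU factors such as OCT4, each searched on both strands. The sequences are from RefSeq, build GRCm38.p6.
Gcnt2: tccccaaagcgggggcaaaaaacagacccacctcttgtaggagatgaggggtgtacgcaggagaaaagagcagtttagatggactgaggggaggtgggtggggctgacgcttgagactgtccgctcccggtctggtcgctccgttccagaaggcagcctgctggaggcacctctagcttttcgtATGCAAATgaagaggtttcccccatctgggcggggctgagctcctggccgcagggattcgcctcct
Phc2: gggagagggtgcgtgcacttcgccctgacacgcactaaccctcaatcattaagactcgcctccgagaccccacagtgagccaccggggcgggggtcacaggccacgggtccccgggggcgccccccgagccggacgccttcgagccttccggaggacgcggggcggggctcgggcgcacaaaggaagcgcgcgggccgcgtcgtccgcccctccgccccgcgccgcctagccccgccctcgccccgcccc
Mettl9: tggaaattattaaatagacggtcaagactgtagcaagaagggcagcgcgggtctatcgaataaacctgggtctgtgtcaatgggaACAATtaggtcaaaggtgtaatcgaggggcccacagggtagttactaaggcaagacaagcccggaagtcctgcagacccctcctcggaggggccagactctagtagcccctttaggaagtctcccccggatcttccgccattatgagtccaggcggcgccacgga
Csnk1e: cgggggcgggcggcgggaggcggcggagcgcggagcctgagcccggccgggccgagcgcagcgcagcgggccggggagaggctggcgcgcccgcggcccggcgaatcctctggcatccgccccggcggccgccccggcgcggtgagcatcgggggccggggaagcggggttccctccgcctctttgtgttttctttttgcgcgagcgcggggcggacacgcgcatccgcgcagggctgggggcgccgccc

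The next sequences stand before annotated starts in the strongest regions that were called in neither mitotic library and held a start of the gene around them. They show the other side of the comparison. Otx2 is named here although it falls outside the rule for named genes.
Mtf2: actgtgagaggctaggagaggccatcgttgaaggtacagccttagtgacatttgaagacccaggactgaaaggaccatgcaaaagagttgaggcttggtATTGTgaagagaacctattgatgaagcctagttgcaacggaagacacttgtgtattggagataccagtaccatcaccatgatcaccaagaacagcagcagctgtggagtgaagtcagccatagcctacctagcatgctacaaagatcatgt
Bmpr1b: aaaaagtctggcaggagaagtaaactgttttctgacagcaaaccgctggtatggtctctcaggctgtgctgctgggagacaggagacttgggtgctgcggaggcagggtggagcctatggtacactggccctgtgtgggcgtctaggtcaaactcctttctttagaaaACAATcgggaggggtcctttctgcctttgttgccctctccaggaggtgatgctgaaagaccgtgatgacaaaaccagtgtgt
Otx2: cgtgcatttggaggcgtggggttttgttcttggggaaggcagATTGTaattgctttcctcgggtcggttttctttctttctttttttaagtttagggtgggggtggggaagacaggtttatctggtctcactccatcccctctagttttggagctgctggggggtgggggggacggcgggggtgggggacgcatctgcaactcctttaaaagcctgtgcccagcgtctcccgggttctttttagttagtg

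The shown bases lie at chr13:40917384-40917633 (plus strand) in Gcnt2, chr4:128727321-128727570 (plus) in Phc2, chr7:121034195-121034444 (plus) in Mettl9 and chr15:79441819-79442068 (minus) in Csnk1e. Those of the regions called in neither library lie at chr5:108077915-108078164 (plus) in Mtf2, chr3:141931589-141931838 (minus) in Bmpr1b and chr14:48662735-48662984 (minus) in Otx2. G and C made up 80.8% of the bases at Csnk1e, 76.0% at Phc2, 59.6% at Gcnt2 and 54.0% at Mettl9, against 46.8% at Mtf2, 52.8% at Bmpr1b and 53.6% at Otx2. The number of CpG dinucleotides was 43, 34, 11 and 12 in the same order, against 2 at Mtf2, 5 at Bmpr1b and 9 at Otx2. ACAAT stood once in the bases shown of Mettl9, Mtf2, Bmpr1b and Otx2, and not in those of Gcnt2, Phc2 and Csnk1e. The octamer stood in the bases of Gcnt2 alone of these 7. The strongest peak of mitotic replicate 1 had its summit inside the bases shown at Gcnt2, 43 bp from them at Csnk1e, 156 bp at Phc2 and 746 bp at Mettl9.

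The first comparison asked how many SOX2 regions inside genes without CTCF were detected in mitosis, and how this compared with SOX2 regions elsewhere. Mitotic replicate 1 called 102 of the 15397 regions (0.662%, 95% Wilson interval 0.546 to 0.803), where it called 3.37% of all reproducible SOX2 regions. Mitotic replicate 2 called 30 (0.195%, 0.137 to 0.278), where it called 0.755% of all. The mean share was 0.429% ± 0.331 (SD, n = 2). Both libraries called 27 regions (0.175%, 0.121 to 0.255), against 0.675% of all SOX2 regions, a count that fell to 9 with mitotic lists of equal length, and at least 1 library called 105 (0.682%, 0.564 to 0.825), against 3.45% of all. The calls were nested, since 27 of the 30 regions of replicate 2 were also called in replicate 1. The remaining 15292 regions (99.3%) were called in neither. Intervals of this kind cover counting error only.

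Gene-interior regions without CTCF had lower shares in both mitotic libraries than SOX2 regions at gene ends and than those inside genes with CTCF, and shares close to those of regions outside genes. All other SOX2 regions, pooled, were called in 4.52% and 0.992% of cases by replicates 1 and 2, so the set lay lower by 3.85 and 0.798 percentage points. SOX2 regions at gene ends without CTCF, within 1 kb of a gene boundary, were called in 5.49% and 0.837% of 4661 cases. SOX2 regions inside genes that did overlap CTCF were called in 4.85% and 1.22% of 4415 cases. The mean difference over both libraries, the set minus the other class, was -2.33 percentage points (SD 2.16, n = 2) for all other regions, -2.74 (SD 2.96) for gene ends and -2.61 (SD 2.23) for regions inside genes with CTCF. Each of these was negative in 2 of 2 libraries, and each gave a two-sided exact sign-flip permutation p of 0.5, the smallest that 2 libraries allow. With regions that held an annotated start left out of every class, the difference from gene ends was -1.99 points in replicate 1 and -0.0827 in replicate 2.

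SOX2 regions outside genes without CTCF were called in 0.731% and 0.188% of 17520 cases. Set against the 0.662% and 0.195% inside genes, the libraries disagreed in sign, with differences of -0.0681 and 0.00649 percentage points (mean -0.0308, SD 0.0528, n = 2, exact sign-flip permutation p = 1). Away from gene ends and from CTCF, regions inside and outside genes could thus not be told apart in these 2 lists. The sign of the mean turned under 7 of 21 alternatives, which are given at the end. In the plot by class, both libraries have their 2 lowest bars in the classes inside and outside genes without CTCF and their highest at gene ends with CTCF, where the shares were 15.7% and 2.98%.

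**Figure D1:**
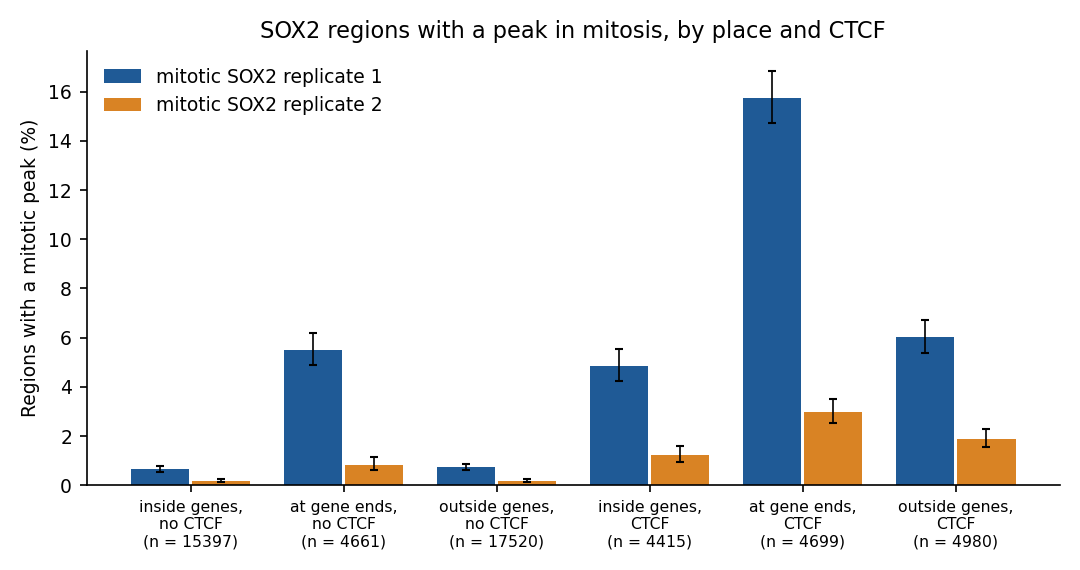
Share of SOX2 regions with a peak in each mitotic SOX2 library (y axis, %), by place relative to protein-coding genes and by overlap with asynchronous CTCF (x axis); bars are the shares and error bars 95% Wilson intervals, which cover counting error only. Regions inside genes without CTCF (0.662% and 0.195%) lie beside regions outside genes without CTCF (0.731% and 0.188%) and below the other 4 classes.

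The rule sets its boundary at 1 kb from the nearest end of a gene, and the shares on its inner and outer side were close. Just inside the set, 452 regions at 1 to 1.5 kb from a boundary were called in 2.21% and 0.664% of cases, against 2.36% and 0.676% of the 592 regions at 0.5 to 1 kb, just outside it. At 1.5 to 2 kb the shares were 1.49% and 0.249% (402 regions), and at 2 to 5 kb 0.677% and 0.226% (1773 regions). Beyond that distance they stayed between 0.405% and 0.641% in replicate 1 and between 0.0493% and 0.253% in replicate 2, out to regions more than 100 kb from any boundary. At 0 to 0.5 kb, further outside the set, they were 3.07% and 0.267% (749 regions), so only replicate 1 rose steadily toward the boundary within 2 kb. SOX2 regions that held a boundary themselves were called in 8.83% and 1.34% of 2311 cases. The median distance of the set from a boundary was 22.3 kb, so the regions near the threshold were a small part, 854 within 2 kb. Among the 27 regions called in both mitotic libraries, the ones nearest to a boundary were those in Nol4l at 1.03 kb, Sdf2 at 1.04 kb and Notch4 at 1.04 kb.

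**Figure D2:**
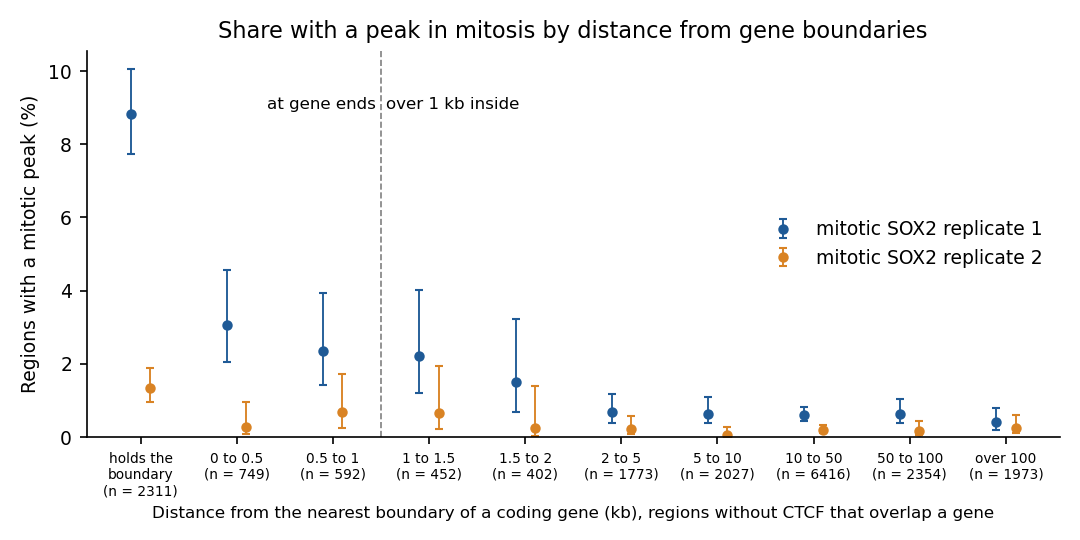
Share of SOX2 regions without CTCF with a peak in each mitotic SOX2 library (y axis, %) by distance from the nearest boundary of a protein-coding gene (x axis, kb), for regions that overlap a gene; points are shares and bars 95% Wilson intervals. The dashed line is the 1 kb limit of the set, across which the shares of replicate 1 were 2.21% on the inner side and 2.36% on the outer side.

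A gap in the same direction appeared when the lists were read from the mitotic side, which uses the same mitotic peaks again. Each peak was classed here by its own interval, and widths were unlike. At the 27 regions called in both libraries, mitotic peaks had median widths of 418 and 261 bp. Asynchronous peaks there had 1341 and 1078 bp. Peaks inside genes without CTCF made up 9.97% of the mitotic SOX2 peaks of replicate 1 (197 of 1976, 95% Wilson interval 8.73 to 11.4) and 11.8% of replicate 2 (48 of 408, 8.99 to 15.3), or 10.9% ± 1.27 (SD, n = 2). In asynchronous cells they made up 30.7% (27681 of 90266) and 31.1% (19724 of 63504) of the peaks, or 30.9% ± 0.278 (SD, n = 2). Both mitotic lists lay below both asynchronous lists. The difference of -20.0 percentage points, mitotic minus asynchronous, was larger than the spread between replicates, and the two-sided exact permutation p of 0.333 is the smallest that 2 against 2 allows. Of the 197 peaks in mitotic replicate 1, 103 lay on regions of the set, 87 on other reproducible SOX2 regions that reached a gene end or CTCF, 3 on peaks of 1 asynchronous list and 4 on none. Of the 48 in mitotic replicate 2, the numbers were 30, 17, 1 and 0.

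Regions called in mitosis were among the stronger ones in asynchronous cells, though most strong regions were not called. Strength here is the rank of a region's highest fold enrichment within an asynchronous list, as a percentile, meaned over both lists. Its median was 97.0 in the 27 regions called in both mitotic libraries, 87.6 in the 75 called in replicate 1 only and 62.0 in the 15292 called in neither. The 3 regions called in replicate 2 only, in Ncoa7, Dgkg and Bckdhb, were named after their values were seen. Regions called in both were also wider, with a median of 1410 bp, against 593 bp in the regions that neither library called. The strongest 10% of all SOX2 regions held 1267 of the set, and 3.71% and 1.74% of these were called in mitotic replicates 1 and 2. SOX2 regions outside genes without CTCF in that class were called in 3.63% and 1.15% of 1735 cases, those at gene ends without CTCF in 20.1% and 7.47% of 174, and those inside genes with CTCF in 11.9% and 6.00% of 700. In the weakest 10% of all SOX2 regions, mitotic replicate 2 called 7 of 1066 outside genes without CTCF and 0 of 1235 of the set. Those 7 were part of its 33 calls outside genes without CTCF. Of the 50 strongest regions of the set, both mitotic libraries called 7 and neither called 42, and of the 500 strongest 16 were called in both and 466 in neither.

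**Figure D3:**
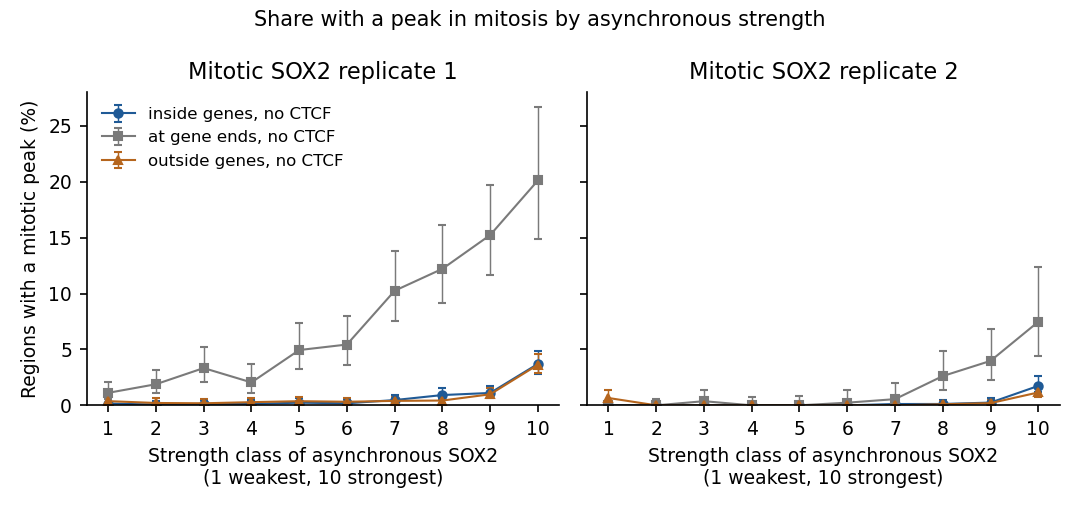
Share of SOX2 regions without CTCF with a peak in mitotic replicate 1 (left) and replicate 2 (right; y axes, %) by strength class of the asynchronous peaks (x axis, 10 classes of all SOX2 regions, 1 weakest); points are shares, bars 95% Wilson intervals. In the strongest class, regions inside genes (3.71% and 1.74%) lie beside regions outside genes (3.63% and 1.15%) and below regions at gene ends (20.1% and 7.47%).

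The 27 regions with a peak in each mitotic library lay in 26 genes, and the values at their summits were solved from the fold and p-value of each peak. The strongest was in Sars, which encodes the cytosolic seryl-tRNA synthetase (chr3:108433003-108434389, 8.14 kb from the nearest gene boundary). Its highest summit had 33 and 22 reads in mitotic replicates 1 and 2, over backgrounds of 6.66 and 3.21 reads, and 374 and 295 reads in asynchronous replicates 1 and 2, over 9.50 and 4.76 reads. Both mitotic summits thus lay far under both asynchronous ones. Ptprn2, a phosphatase-like protein of secretory granules, held the next (chr12:117234857-117236058), with 22 and 16 mitotic and 301 and 142 asynchronous summit reads. Ago1, an Argonaute of the microRNA pathway, held a region (chr4:126464383-126466418) with 69 and 32 mitotic and 304 and 222 asynchronous reads, which made it the highest of the 27 in mitotic replicate 1. The region in Arid5b, a DNA-binding protein with an ARID domain, had 64 and 36 mitotic and 358 and 264 asynchronous reads (chr10:68136332-68138650). A CTCF peak of asynchronous cells stood 0.033 kb from that region.

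Further regions called in both libraries are given by the role of the gene around them. Sox5, an HMG-box relative of SOX2, held a region 327 kb from any gene boundary (chr6:144453429-144455278), with 28 and 16 mitotic and 294 and 168 asynchronous summit reads. Stag1, a cohesin subunit, held one with 25 and 19 mitotic and 211 and 122 asynchronous reads. Bnc2, a zinc finger protein, held one with 43 and 18 mitotic and 227 and 141 asynchronous reads. Taf15, an RNA-binding protein of the FET family, held one with 25 and 22 mitotic and 176 and 119 asynchronous reads. Ebf1, a transcription factor known from B cells, was the only gene with more than 1 called region: the region chr11:44863341-44865204 had 39 and 36 mitotic and 152 and 93 asynchronous reads. The other, at chr11:44841295-44842620, falls outside the rule for named genes, as does the region in Sdf2. It had 52 and 26 mitotic and 154 and 116 asynchronous reads.

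The other strong regions called in both libraries lay in genes of varied roles. They were in Cradd, an adaptor with a death domain, Sdk1, an adhesion molecule of the immunoglobulin family, Tjp1, which encodes the tight junction protein ZO-1, Commd7, Gm17359, Aim2, a sensor of cytosolic DNA, and Cdkal1, an enzyme that modifies tRNA. Mitotic summits in these 7 regions had 23 to 54 reads in replicate 1 and 16 to 42 in replicate 2, and asynchronous summits 149 to 297 and 77 to 196. The region in Aim2 also held a tRNA gene (chr1:173389453-173390628), and its 54 and 42 mitotic reads stood against 149 and 97 asynchronous reads. It had the highest summit of the 27 in mitotic replicate 2. Only 3 of the 15397 regions overlapped one of the 408 tRNA genes, and the other pair, in Cdh19 and Btn1a1, named after their values were seen, was called in neither mitotic library. Among the 956 regions that overlapped a long noncoding RNA gene, 10 and 5 were called (1.05% and 0.523%, against 0.662% and 0.195% over the whole set).

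The other end of the 27, by asynchronous strength, held regions with fewer asynchronous reads than those of Sars or Ptprn2. Nol4l held the weakest, at strength 71.9 (chr2:153527791-153529212), with 30 and 19 mitotic and 44 and 40 asynchronous summit reads. That region lay near both limits of the rule, 1.03 kb from a gene boundary and 0.027 kb from an asynchronous CTCF peak. Larp1, a regulator of the translation of ribosomal protein mRNAs, held one at strength 84.8 (chr11:58002170-58002754) with 39 and 25 mitotic and 60 and 41 asynchronous reads. The region of Plekho1, a protein with a pleckstrin homology domain, had 38 and 22 mitotic and 80 and 52 asynchronous reads (strength 73.6). That of Csnk1e, the casein kinase that acts on the circadian clock, had 34 and 19 mitotic and 84 and 69 asynchronous reads (strength 84.8). Phc2, a subunit of Polycomb repressive complex 1, had 26 and 17 mitotic and 96 and 61 asynchronous reads. Mettl9, a methyltransferase, had 28 and 24 mitotic and 70 and 52 asynchronous reads. Gcnt2, a glycosyltransferase that branches sugar chains, had 27 and 29 mitotic and 158 and 95 asynchronous reads. The region in Notch4, a Notch receptor, had 54 and 28 mitotic and 129 and 66 asynchronous reads, and that in Tbx1, a T-box factor, 28 and 25 mitotic and 120 and 51 asynchronous reads.

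Over all 27 regions, mitotic summits held 22 to 69 reads in replicate 1 (median 32) and 16 to 42 in replicate 2 (median 22), against 44 to 374 (median 166) and 40 to 295 (median 116) in asynchronous replicates 1 and 2. Each region had fewer reads in the mitotic library than in the asynchronous library of the same number. The regions were chosen for being called in mitosis, and the lists were called separately, so these reads are a description with no test. The mitotic summit lay within 100 bp of the summit of asynchronous replicate 1 at 20 regions in mitotic replicate 1 and at 22 in replicate 2. Mitotic peaks were narrow, with median widths of 418 and 261 bp, against 1341 and 1078 bp for the asynchronous peaks at the same regions.

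**Figure D4:**
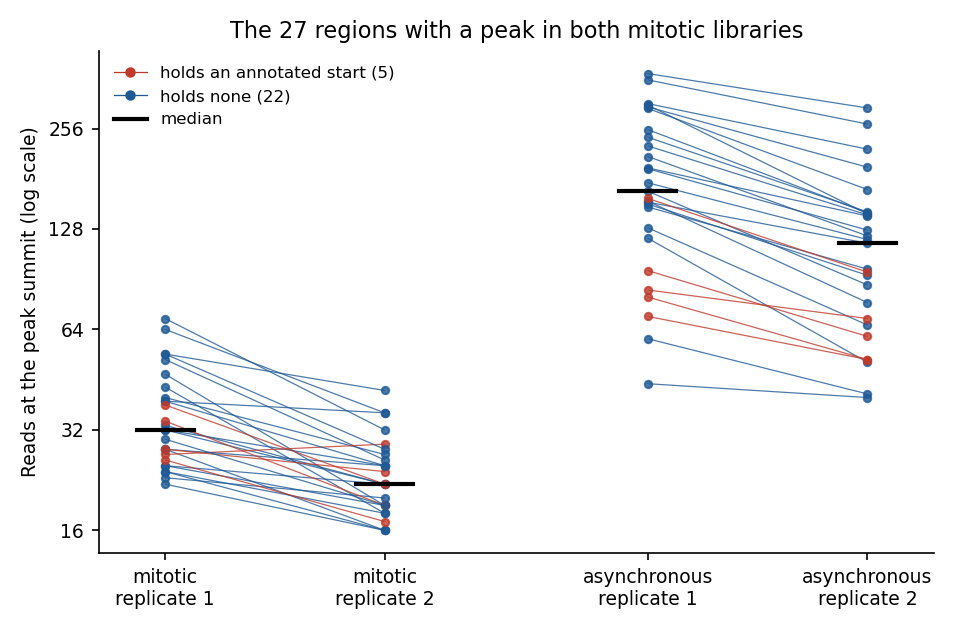
Reads at the peak summit (y axis, log scale) in the 27 regions called in both mitotic SOX2 libraries, for each mitotic and asynchronous library (x axis); each line joins the replicates of 1 region, red lines are the 5 regions with an annotated start of the gene around them, and black bars are medians. The medians were 32 and 22 reads in mitotic and 166 and 116 reads in asynchronous libraries.

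The 10 strongest regions called in neither mitotic library had asynchronous summits within the range of those called in both. They lay in Gmnc, a regulator of multiciliated cells, Frmd5, Inpp4b, a phosphoinositide phosphatase, Nt5e, the ectonucleotidase CD73, Zyg11a, Mtf2, a subunit of Polycomb repressive complex 2, Pgap1, an enzyme of GPI anchors, Morc1, Radil and Plcb1, a phospholipase C. Asynchronous summits in these regions had 227 to 323 reads in replicate 1 and 152 to 219 in replicate 2. At Gmnc (chr16:26961661-26962603) the asynchronous folds were 39.1 and 36.9, and at Mtf2 (chr5:108076055-108078818) 32.5 and 39.4. Neither had a peak in a mitotic library, where the lowest summit in a called peak was 18 reads in replicate 1 and 15 in replicate 2.

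Regions that held an annotated start were called in mitosis more often than those without. RefSeq start windows, 250 bases before to 50 bases after each start, were present in 501 of the 14883 regions on the chromosomes that the table of starts covers. This comparison was added after the lists had been seen. Mitotic replicate 1 called 24 of the 501 with a start (4.79%, 95% Wilson interval 3.24 to 7.03) and 73 of the 14382 without (0.508%, 0.404 to 0.638). Mitotic replicate 2 called 6 with a start (1.2%, 0.550 to 2.59) and 24 without (0.167%, 0.112 to 0.248). The mean difference, with minus without, was 2.66 percentage points (SD 2.30, n = 2), positive in 2 of 2 libraries, with the smallest exact sign-flip permutation p, 0.5. Where the start belonged to the gene around the region, 6.07% and 1.32% of 379 regions were called, and where it belonged to another gene only, 1 of 122 in each library.

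Regions with a start were not stronger in asynchronous cells. Their median strength was 53.6 and their median width 735 bp, against 62.3 and 590 bp for those without. In strength classes 6 to 9 of 10, 11.1% and 2.78% of the 180 with a start were called, against 0.356% and 0.0486% of the 6179 without. In the strongest class the shares were 9.52% and 4.76% of 21 with a start, against 3.57% and 1.74% of 1204 without. The 5 regions with a start that both mitotic libraries called had a median strength of 85.1, and the 22 without a start 97.8.

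Start windows in called regions were richer in G, C and CpG than the rest. The 36 windows in regions called in at least 1 mitotic library had a median of 68.2% G and C and 29 CpG dinucleotides, against 54.8% and 10 for the 548 windows in regions called in neither, and 52.7% and 7 for all 32851 windows of the genome. The 2711 windows in SOX2 regions at gene ends without CTCF had medians of 60.3% and 20, also above those of regions called in neither. Windows of neighbouring starts overlap, so they are not separate cases, and the values are a description. CCGCG, a string of CpG islands, was searched for comparison, as a sequence of like length that is no SOX2 or OCT4 site. On either strand it was found in 72.2% of the windows in called regions and 34.7% of those in regions called in neither. Its share was 56.4% in the windows at gene ends without CTCF and 30.6% in all windows. ACAAT was found in 33.3% of the windows in called regions, 33.6% of those in regions called in neither and 31.0% of all, so its share hardly varied among these. The longer ACAATG, which contains it, was found in 27.8%, 14.8% and 12.6%. ATTTGCAT was in 1 of the 36 windows, in 2.37% of those called in neither and in 1.74% of all. TTGTNATGC, a spaced pair of SOX and POU letters, was in 0 of the 36 windows, in 0.912% of those in regions called in neither and in 0.731% of all.

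Genes over 50 kb held most of the set and most of the regions called in mitosis, though the share called in replicate 1 fell with gene length. Of the 6307 genes with a region, 3165 held 1 and 176 held 10 or more. Etl4 held 33 and Auts2, a gene linked to autism, 29. Msi2, an RNA-binding protein of stem and progenitor cells, held 27, Pdzd2 26, Nav2, Pitpnc1 and Ptprg 25 each, Arhgap26 and Magi1 24 each and Zfhx3, a homeobox gene, 23. Of these 261 regions 2 were called in a mitotic library, 1 each in Msi2 and Zfhx3, both in replicate 1 only, where the share of the whole set in at least 1 library, 0.682%, would give 1.78. By gene length, regions in genes of up to 10 kb were called in 1.67% and 0.667% of 300 cases. The shares were 0.881% and 0.235% of 3407 at 10 to 50 kb and 0.631% and 0.161% of 6815 at 50 to 200 kb. In genes over 200 kb they were 0.485% and 0.182% of 4952.

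Per length, other genes led. Among genes of at least 50 kb, Etv5, an ETS factor downstream of FGF signalling, held 15.4 regions per 100 kb, and the median of such genes was 1.30. Mras, a RAS-like GTPase, followed with 15.3, Vangl1, a planar polarity protein, with 13.7, Limk2, a kinase of the actin cytoskeleton, with 13.6 and Cdh1, which encodes E-cadherin, with 13.5. Trim71, an RNA-binding repressor and let-7 target, had 13.2, Epha4, an ephrin receptor, 12.8, Reep3 12.5, Zmynd8 12.2 and Zfp532 11.9. None of the 106 regions in these 10 genes was called in a mitotic library, where the share of the set in at least 1 library would give 0.723.

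**Figure D5:**
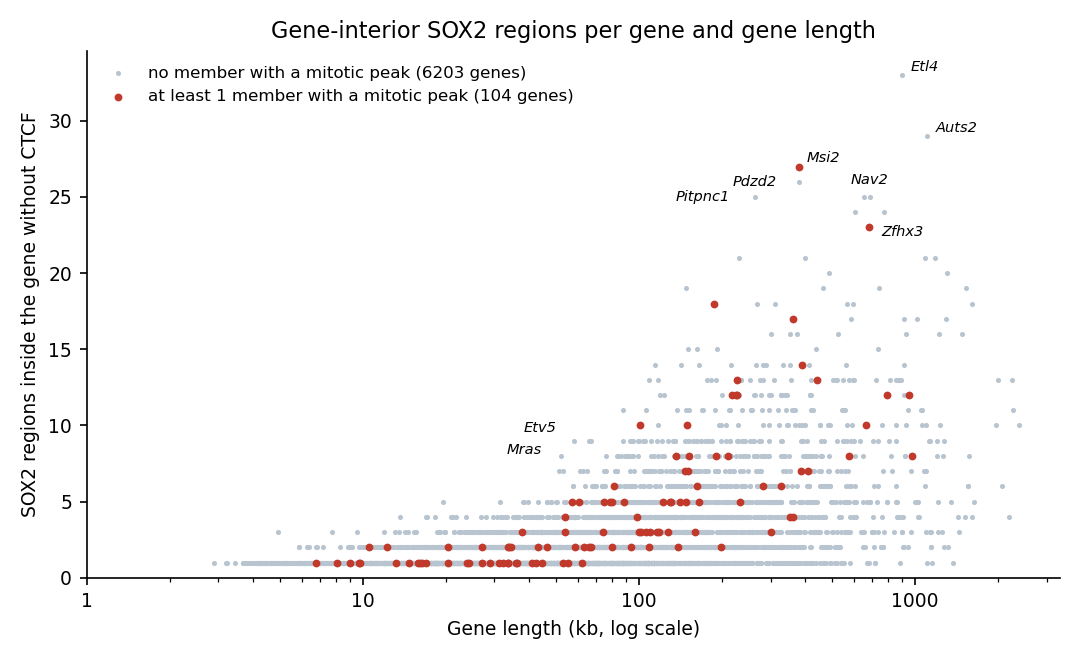
Number of SOX2 regions inside each gene without CTCF (y axis) by gene length (x axis, kb, log scale), for the 6307 genes with at least 1; each point is a gene, red where at least 1 of its regions had a mitotic SOX2 peak. Etl4 has the most, 33, with none called in mitosis.

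Some genes of pluripotency held many of these regions, and none of these regions was called in mitosis. In a list of 32 pluripotency genes, 13 held 49 regions, or 4.71 per 100 kb of gene, against 1.5 over all protein-coding genes. The median gene of the list held 0. Other lists below also lay above 1.5: Polycomb and DNA methylation (3.44), FGF-ERK (3.03), cell cycle (2.86) and Wnt (2.06). LIF, BMP and Nodal genes had 1.51, and axon guidance (1.22), ribosomal protein (0.989) and synaptic genes (0.681) lay below. Jarid2, a cofactor of Polycomb repressive complex 2, held 13, Etv5 9, Esrrb, an orphan nuclear receptor that acts beside SOX2, 7, Tfcp2l1 5 and Tet1, which oxidizes methylated cytosine, 4. The strongest region of Tfcp2l1 had folds of 15.4 and 21.2 in asynchronous replicates 1 and 2, and that of Jarid2 14.6 and 9.02. At the shares of the whole set, 0.662% and 0.195%, 49 regions would hold 0.325 and 0.0955 called ones, so a count of 0 cannot be told from the rest at this number.

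Genes of signalling pathways held regions as well. Genes of the FGF-ERK pathway held 48 regions in 20 of 31 genes, led by Etv5, the receptor Fgfr2 with 6, the exchange factor Sos1 and the inhibitor Spred2 with 4 each and the receptor Fgfr1 with 3. LIF, BMP and Nodal genes held 28 in 14 of 31, led by the receptor Acvr1 and the inhibitor Smad6 with 5 each, the receptor Acvr2a and the inhibitor Smad7 with 3 each and the receptor Bmpr1b with 2. Wnt genes held 36 in 10 of 31, led by Tcf7l1, a repressor of Wnt targets in stem cells, with 15, Znrf3 with 6, Gsk3b with 4, Tcf7l2 with 3 and Lef1 with 2. In these 3 lists 0 regions were called in a mitotic library, where the share of the set in replicate 1 would give 0.318, 0.185 and 0.238, so these counts too cannot be told from the rest.

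Polycomb and axon guidance genes each had 1 called region, near the 0.391 and 0.921 that the share of the set in replicate 1 would give. Polycomb and DNA methylation genes held 59 regions in 20 of 35 genes, led by Jarid2, Dnmt3a with 5 and Cbx7, Kdm2b and Mtf2 with 4 each, and the called one was that of Phc2 in both mitotic libraries. Axon guidance genes held 139 in 28 of 32, led by Epha4 with 19, Robo1 and Slit3 with 17 each and Ephb1 and Ephb2 with 7 each. Their called region was in Slit2, a guidance ligand, in replicate 1 only (24 mitotic summit reads), and it held a start of Slit2. Synaptic and adhesion genes held 249 in 32 of 36, led by Magi1 with 24, Cdh13 with 21, Magi2 with 16, Cadm1 with 14 and Cntnap2 with 13, with 0 called, against 1.65 at the share of the set. Per 100 kb these long genes held 0.681 regions, against 1.5 over all protein-coding genes. Cell cycle genes held 34, led by Ccnd3 with 9, Rb1 with 7, Cdk6 and Mad1l1 with 5 each and E2f3 with 2, and ribosomal protein genes 3, in Rpl36, Rpl4 and Rps18, again with 0 called, against 0.225 and 0.0199 at that share.

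The regions lay somewhat toward the starts of genes. Of 12028 regions within 1 gene of known strand, 55.0% had the summit of asynchronous replicate 1 nearer the 5′ end of the gene and 45.0% nearer the 3′ end, and replicate 2 gave the same shares. The median distance to the next region of the set on the chromosome was 14.8 kb. Autosomes held 13.3 to 19.8 regions per Mb of gene body (median 15.5), and the X chromosome 5.45, where 0 of 249 regions were called in at least 1 mitotic library and the share of the set would give 1.70.

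The set was chosen to hold no asynchronous CTCF peak, so a low count of mitotic CTCF peaks could follow from the rule alone. The counts are a description, and the same share over all SOX2 regions is not given here. Mitotic CTCF replicate 1 had a peak at 12 of the 15397 regions, and mitotic CTCF replicate 2 at 0, which allows a share of up to 0.0195% at 3 counts. The 12 regions lay a median of 0.35 kb from an asynchronous CTCF peak, and 0 of them were called for mitotic SOX2. The median distance of the set from the nearest asynchronous CTCF peak was 7.85 kb, and it was 7.77 kb for the regions called in both mitotic libraries. For the 75 regions called in mitotic SOX2 replicate 1 only it was 4.23 kb. The 3 called in replicate 2 only had a median of 3.99 kb, and the regions called in neither 7.88 kb.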

How the data were processed

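The deposited files were 1 peak list per library, so replicates were called separately. The submitters' processing notes name MACS2 2.1.1.20160309, BWA 0.7.17, SAMtools, CASAVA 1.4 and build mm10. What each tool did, with which options and against which control, is not given in the sources used here. In these lists the authors deposited, for each peak, a score, a fold enrichment (the ratio of summit coverage to local background) and −log10 p and −log10 q values. The lowest −log10 q of each list puts the threshold near a q-value of 0.05. These are the authors' values and served to rank, filter or describe peaks within a list.

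Summit and background reads were solved from fold and −log10 p under MACS2's Poisson model (tolerance 0.005), which gave whole summit reads for 100% of the peaks tried. Genes and start windows came from RefSeq tables on GRCm38.p6, matched by symbol. The 514 regions outside the chromosomes that the table of starts covers had no start or strand. Some genes on the covered chromosomes, such as Cdh1 and Auts2, had no known strand either. Strand was thus used only for the 12028 of 15397 regions that lay within 1 gene of known strand. No genome was used, so the planned motif comparison at summits was replaced by letters in start windows, and introns and exons were not told apart. The sequence before 1 of the starts is not reported here. The code (Python 3.11.15, numpy 2.4.6, pandas 2.3.3, scipy 1.17.1) was tested on simulated data and against bedtools 2.31.1.

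Shares of the same mitotic library were paired, and differences tested by two-sided exact sign flips over 2 libraries. For the peak list shares a two-sided exact permutation of 2 against 2 was used. The regions, gene lists and tests were chosen with earlier results of these data known. Named were, of the regions in both mitotic lists, the 15 strongest and 10 weakest, then the 10 strongest that neither list held, the 10 genes with the most regions and the 10 with the most per 100 kb, and up to 5 genes per list. Alternatives changed the peak threshold, overlap, CTCF rule, gene boundary and gene types, libraries used, list length, strength and width weighting, summit distance and pairing. The comparison of regions with and without annotated starts, and leaving out regions with starts, were added after the data were seen.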

Additional observations from a re-analysis of the deposited data

How the results depend on the processing

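The lower share called inside genes without CTCF, relative to all other SOX2 regions, to gene ends without CTCF and to regions inside genes with CTCF, kept its direction under all 21 alternatives tried for each, from -5.63 to -0.798, from -11.1 to -0.642 and from -6.21 to -1.02 percentage points. The higher share with an annotated start kept its direction under all 20, from 0.855 to 4.49 points, and the lower share of the mitotic lists under all 16, from -23.2 to -14.5 points. No p from 2 libraries, or from 2 against 2, can pass 0.05, so these ranges speak of direction and size only. The counts include a change of pairing, which alters p alone and could not move a value. Taking regions of either asynchronous library could not move the list difference, -20.0 points, either. At equal strength and width, the differences from all others, gene ends and regions inside genes with CTCF were -1.28, -2.44 and -1.27 points. At equal strength alone they were -2.26, -4.10 and -2.32, and without regions that held a start -1.26, -1.04 and -1.95. Without mitotic replicate 1 or replicate 2 the difference from gene ends was -0.642 and -4.83 points, that from all others -0.798 and -3.85, that from regions inside genes with CTCF -1.03 and -4.18, and the start difference 1.03 and 4.28, so each rests in size on replicate 1.

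The difference from regions outside genes without CTCF, -0.0308 points, turned to 0.00104 at a −log10 q of at least 5, 0.0174 at a fold of at least 5, 0.331 in the strongest 10% of regions, 0.00690 at equal strength and 0.0147 at equal strength and width. Leaving out 1 library gave -0.0867 to 0.00649 points, with a positive sign without mitotic replicate 1 (0.00649) and without asynchronous SOX2 replicate 1 (0.00258). The mean share called was 2.72% in the strongest 10%, and 0.195% to 0.662% with 1 library left out. The number of regions in the set was 7329 at a fold of at least 5 and 29980 with regions of either asynchronous library, and 15976 to 27681 with 1 library left out. The number called in both mitotic libraries was 9 with mitotic lists of equal length and 22 without regions that held a start. Without those regions the mean share was 0.337% and the difference from gene ends -1.04 points (-1.99 and -0.0827 in the 2 libraries); the cause of these shifts was not tested.

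No label says that same-numbered mitotic and asynchronous libraries shared a batch, though the numbers in their descriptions lie closer within a replicate than between replicates, so the pairing was not settled. Treating the number as a replicate block left the list difference at -20.0 points, with an exact sign-flip permutation p of 0.5. With no replicate block, the unpaired exact permutation p was 0.333 for the differences from all others, gene ends, regions with CTCF and for the start difference, and 1 for that from regions outside genes. Detection was limited most at the weaker regions. In asynchronous replicate 2, 30.0% of the set had a fold below the lowest called at average background in mitotic replicate 2. Depth was close in the mitotic and asynchronous libraries of replicate 2 (1.64 and 1.61 background reads per 100 bp). Their lowest called folds at average background were 4.04 and 2.74, and what set this floor was not tested.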

Other observations

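Of the 75 regions called in mitotic replicate 1 only, 18 held an annotated start of the gene around them. The 75 include 5 on chromosome 18, which the table of starts does not cover. Over the set, 379 of the 14883 regions that could be checked held such a start. The regions with a start named here were picked after their values were seen. Among them were Lin28b, which encodes an inhibitor of let-7 processing, with 24 summit reads in mitotic replicate 1 and 97 and 61 in the asynchronous libraries, and Cirbp, a cold-inducible RNA-binding protein, with 29 mitotic and 99 and 59 asynchronous reads. Isl2, a LIM homeobox gene, had 32 mitotic and 92 and 68 asynchronous reads, and Brd3, a BET protein that reads acetylated histones, 30 mitotic and 73 and 54 asynchronous reads. Gabpb1, a subunit of the ETS factor GABP, had 30 mitotic and 109 and 61 asynchronous reads. In each of these the mitotic summit had fewer reads than both asynchronous summits, though not always at the same position. The offset of the mitotic summit from that of asynchronous replicate 1 was 622 bp at Cirbp, 338 bp at Gabpb1 and -269 bp at Brd3. It was 101 bp at Lin28b and 41 bp at Isl2.

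The region in E030030I06Rik had the highest mitotic summit of the 75, 167 reads, over a background of 109 reads, and 172 and 91 reads in the asynchronous libraries over backgrounds of 93.8 and 54.4.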
